A study of Mus musculus with 64 samples.

Results

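The cortex of mice labelled Polq+/- was compared with that of wild-type (WT) mice, in 16 libraries chosen by their titles from the 64 of the series. Each group held 8 mice of the C57BL/6 background aged 6 months, 4 females and 4 males, with 1 cortex library per mouse. Neither group carried Q140, a mouse model of Huntington's disease in which the huntingtin gene (Htt) holds a knocked-in, lengthened CAG repeat. The titles give the Q140 carriers of the series as heterozygous for this knock-in. The comparison asks how cortical gene expression differs in mice labelled Polq+/- when the knock-in is absent. Of the remaining libraries, 16 are cortex of Q140 and Q140 Polq+/- mice and 32 are striatum of the same 32 mice. The labels give the Polq genotype only as +/-, and which allele it is, and what part of the gene it changes, the sources used here do not give. All genes of the count table were examined, and 18116 of them passed the low-count filter.

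Polq encodes DNA polymerase theta, a large protein with a helicase-like domain and a polymerase domain. It anneals short stretches of matching sequence at resected double-strand breaks and fills them in, a route of repair called theta-mediated or microhomology-mediated end joining. The pathway is best known from dividing cells that lack homologous recombination, and neurons, which no longer divide, rely mainly on classical end joining. The repair of CAG tracts is of interest in Huntington's disease because expanded tracts lengthen further in neurons during life.

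Total gene counts were 31.6 to 38.7 M per library over the 16 libraries. Within a group the log2 levels of 2 libraries correlated at 0.9894 or more, and no pair of the same group agreed within sampling noise. Pairs of libraries from different groups were not examined for such agreement. The levels of sex-linked genes fitted the labelled sex in 16 of 16 libraries. The library labelled Polq+/- male 3 stood apart in Polq, at 0.602 CPM where the other 7 of its group had 1.20 to 1.38 CPM, and whether this mouse is heterozygous was not tested. Without it 5 of the 8 genes below were called, namely Abi3bp, Cd47, Fbxo40, Ift57 and Pcnp. Levels are given in CPM, a gene's reads relative to the library's total gene count after TMM scaling. A fold change is the log2 difference Polq+/- minus WT from edgeR's quasi-likelihood test, fitted with sex as a covariate over all 32 cortex libraries. A gene is called when its p-value, adjusted by Benjamini and Hochberg over all 18116 genes, is under 0.05.

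In edgeR's test 8 genes changed, all on chromosome 16. Fbxo40, Abi3bp, Cd47, Ift57, Nxpe3 and Cldnd1 rose, and Dubr and Pcnp fell. Fbxo40 begins 21.3 kb from the start of Polq and rose 13.8-fold. The other 7 genes lie 12.6 to 21.63 Mb above Polq and changed by 2.25-fold or less. The 8 called genes (6 higher, 2 lower) are 0.0442% of the genes tested. The count at an unadjusted p under 0.05 was 841 genes, 4.64% of those tested, where 906 would be expected if no gene differed.

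Polq itself was examined first, since it checks the labels. Its level in the 8 WT libraries had a lowest value of 1.82, a median of 2.42 and a highest value of 3.33 CPM. In the 8 Polq+/- libraries the lowest was 0.602, the median 1.27 and the highest 1.38 CPM. Every Polq+/- library lay below every WT library, the order the labels give. The means were 2.48 ± 0.52 CPM in WT and 1.19 ± 0.245 CPM in Polq+/- (SD, n = 8 each), a fold of 0.48. An exact two-sided permutation test of the mean log2 CPM within sex gave p = 0.000408, the smallest that 4900 arrangements allow. In edgeR's test over all genes the log2 fold change was -1.06 (SE 0.223, 95% interval -1.49 to -0.62), with an adjusted p of 0.0797, so Polq was not called. Counts were low, with 332 reads on Polq in all 8 Polq+/- libraries together and 685 in WT.

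The library labelled Polq+/- male 3 was low in both tissues. The striatum of that mouse had 0.376 CPM of Polq, and the other 7 Polq+/- striata had 1.31 to 2.42 CPM. Without that library the cortical log2 fold change was -0.95 and Polq was again not called (adjusted p = 0.257, edgeR). Of the Q140 Polq+/- mice, 3 had similarly low cortical Polq, at 0.375, 0.414 and 0.447 CPM. With these 4 mice, which were picked by their Polq level, left out of the fit, Polq passed edgeR's test at a log2 fold change of -0.95 (adjusted p = 6.22e-05). Among the Q140 carriers the same fit went the other way, and Polq, called at -1.14 (adjusted p = 0.0394) with all mice, was not called at -0.68 (adjusted p = 0.0873).

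**Figure D1:**
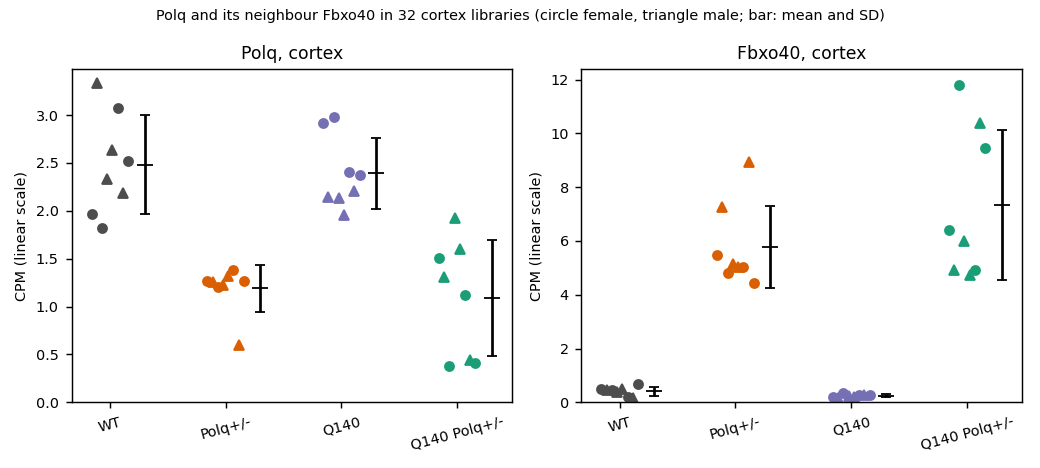
Polq (left) and Fbxo40 (right) in CPM on linear axes from 0, 1 point per cortex library (circles females, triangles males), with the mean and SD of the 8 mice of each of the 4 genotypes, those with Q140 included. Polq lay between 0.602 and 1.38 CPM in Polq+/- and between 1.82 and 3.33 CPM in WT, while Fbxo40 lay between 4.44 and 8.92 CPM in Polq+/- and at 0.69 CPM or less in WT.

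Fbxo40 (ENSMUSG00000047746, minus strand, chr16:36963460-36990467 on GRCm38) encodes an F-box protein, a substrate adaptor of a ubiquitin ligase, best known from muscle. In WT cortex it was low, with a lowest value of 0.16, a median of 0.47 and a highest value of 0.69 CPM (6 to 26 reads per library). In Polq+/- cortex the lowest was 4.44, the median 5.08 and the highest 8.92 CPM (150 to 341 reads). The groups were far apart, and the library of lowest Polq, male 3, had the highest Fbxo40. The log2 fold change was 3.79 (SE 0.264, 95% interval 3.27 to 4.30, adjusted p = 2.04e-10, edgeR), and all 8 Polq+/- mice were above the WT median. Per length the level stayed modest, at 0.075 FPKM in WT and 1.04 FPKM in Polq+/-. On FPKM, Polq went from 0.255 in WT to 0.123 in Polq+/-.

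Fbxo40 and Polq (ENSMUSG00000034206, plus strand, chr16:37011786-37095417) are transcribed away from each other, with their starts 21.3 kb apart. The 250 bases before each start are shown because this pair of neighbours moved in opposite directions. The sequences are RefSeq's for GRCm38.p6, each read 5′ to 3′ on the strand of its gene, and capitals mark E-boxes (CANNTG). The Polq bases are chr16:37011536-37011785 and the Fbxo40 bases chr16:36990468-36990717.
Polq: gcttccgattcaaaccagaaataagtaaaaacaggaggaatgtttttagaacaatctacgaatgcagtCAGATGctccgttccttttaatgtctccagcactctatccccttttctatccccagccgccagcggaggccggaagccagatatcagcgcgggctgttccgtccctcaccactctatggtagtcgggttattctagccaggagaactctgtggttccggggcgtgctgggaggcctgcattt
Fbxo40: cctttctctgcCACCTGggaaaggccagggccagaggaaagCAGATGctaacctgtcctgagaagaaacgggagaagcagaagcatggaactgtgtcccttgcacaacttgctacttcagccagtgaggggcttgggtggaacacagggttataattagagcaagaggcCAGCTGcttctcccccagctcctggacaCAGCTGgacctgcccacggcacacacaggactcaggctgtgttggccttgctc
The Polq window held 12 CpG and 1 E-box, and the Fbxo40 window held 2 CpG and 4 E-boxes. An E-box occurs in 66.2% of the 32851 promoter windows of this length. Neither window held the letters TATAAA (found on either strand in 12.4% of windows), CCAAT (33.8%) or GGGCGG (32.7%). These are letter matches only.

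Other genes around Polq were examined in the same fit. Within 1 Mb of Polq 20 genes were tested, and apart from Fbxo40 and Polq none of the other 18 was called or reached an unadjusted p under 0.05 (0 of 18, beside 0.0442% and 4.64% of all genes, at which fewer than 1 of 18 would be expected). Within 2 Mb of Polq, with both genes included, 7 of 45 genes had an unadjusted p under 0.05 (15.6%), and within 5 Mb 10 of 76 did (13.2%). The log2 fold changes of the 18 other genes within 1 Mb ran from -0.125 for Wdr5b to 0.12 for Cd86. Hcls1, the next tested gene beyond Fbxo40 and a signalling adaptor of blood cells, had a log2 fold change of 0.02. Stxbp5l, a syntaxin-binding protein and the next tested gene beyond Polq, was at 59.0 CPM in WT and 57.6 CPM in Polq+/-. Both were named for their position.

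Of the called genes, 3 lie 12.6 to 13.62 Mb above Polq. Cd47 (ENSMUSG00000055447, plus strand, chr16:49800533-49915010) encodes a surface protein that signals to phagocytes through SIRPα. Its WT libraries ran from 130 to 149 CPM (median 140) and its Polq+/- libraries from 172 to 220 CPM (median 182), with no overlap. The log2 fold change was 0.43 (SE 0.0523, adjusted p = 4.15e-05, edgeR), with all 8 mice above the WT median. Ift57 (ENSMUSG00000032965, plus strand, chr16:49699233-49765126) encodes a subunit of the intraflagellar transport particle that builds cilia. It ran from 37.9 to 41.6 CPM (median 39.4) in WT and from 43.8 to 52.2 CPM (median 45.9) in Polq+/-, again with no overlap. The log2 fold change was 0.25 (SE 0.0339, adjusted p = 4.15e-05). Its exons share 225 bases with the antisense gene Gm15518, and because the sources used here do not say whether counting used strand, reads there cannot be told apart.

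Dubr (ENSMUSG00000022639, minus strand, chr16:50719294-50732773) is a long noncoding RNA. Its level was 4.38 to 6.03 CPM (median 4.94) in WT and 2.09 to 4.87 CPM (median 3.24) in Polq+/-. The groups overlapped, because Polq+/- female 3, at 4.87 CPM, lay within the WT range. It fell by 0.68 on the log2 scale (SE 0.129, adjusted p = 0.0228, edgeR), with all 8 mice below the WT median. One of its transcripts shares stretches of at least 100 bases at 95% identity or more with transcripts of 21 other genes, so its counts depend on how such reads were assigned.

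Further along, 18.74 to 21.63 Mb above Polq, lie Nxpe3, Pcnp, Abi3bp and Cldnd1. Abi3bp (ENSMUSG00000035258, plus strand, chr16:56477878-56690135) encodes a secreted protein of the extracellular matrix. It was at 5.31 to 8.71 CPM (median 6.68) in WT and at 10.7 to 26.5 CPM (median 14.0) in Polq+/-, without overlap. The log2 fold change was 1.17 (SE 0.185, 95% interval 0.81 to 1.53, adjusted p = 0.003, edgeR). The highest value, 26.5 CPM, came from female 2, and the next was 17.6 CPM in male 3. Nxpe3 (ENSMUSG00000075033, minus strand, chr16:55839953-55895285), a secreted glycoprotein of the neurexophilin family, was at 25.9 to 30.9 CPM in WT and 29.2 to 38.7 CPM in Polq+/-. It rose by 0.21 (SE 0.0417, adjusted p = 0.0282), though the ranges overlapped. Cldnd1 (ENSMUSG00000022744, plus strand, chr16:58727910-58734251), a membrane protein with a claudin domain, was at 54.2 to 62.2 CPM in WT and 56.7 to 70.3 CPM in Polq+/-. It rose by 0.16 (SE 0.0331, adjusted p = 0.0355), with 7 of 8 mice above the WT median.

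Pcnp (ENSMUSG00000071533, minus strand, chr16:56007245-56029739) encodes a small nuclear protein rich in PEST sequence and was the most evenly expressed of the 8 in WT. Its WT libraries lay between 72.0 and 74.8 CPM (median 73.8) and its Polq+/- libraries between 57.4 and 67.0 CPM (median 63.1). All 8 Polq+/- mice lay below all 8 WT mice, and Pcnp fell by 0.24 on the log2 scale (SE 0.0344, adjusted p = 8.65e-05, edgeR). Gm7887, a processed pseudogene on chromosome 6 (minus strand, chr6:48524554-48525090), is a near copy of the Pcnp coding sequence, 99.6% identical over 537 bases. They differ by 2 substitutions, G429C and T443C, counted from 1 at the first base of the start codon, with the Pcnp base first. The 30 bases around both are shown from positions 422 to 451, read 5′ to 3′ on the strand of each gene, with the differing bases in capitals.
Pcnp: catcagcGggaccaaactcctTtaataaag
Gm7887: catcagcCggaccaaactcctCtaataaag
A read that lies wholly within the 537 aligned bases and holds neither position cannot be assigned to 1 copy. The longest identical run was 428 bases. Gm7887 had 15.5 to 18.0 CPM in WT and 17.3 to 22.7 CPM in Polq+/-, opposite in direction to Pcnp, with a log2 fold change of 0.23 that was not called (adjusted p = 0.0955, edgeR). With the counts of both added into 1 gene, the log2 fold change of Pcnp was -0.14 and still called (adjusted p = 0.00508). Pcnp also shares 238 exon bases with Zbtb11 on the other strand and a 460-base stretch of 99.8% identity with the pseudogene Zfp862-ps.

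Other named chromosome 16 genes were not called. Cep97, which caps centrioles and holds back cilia, was at 21.6 to 25.2 CPM in WT and 15.2 to 21.4 CPM in Polq+/-, so that the groups did not overlap. Its log2 fold change was -0.29 (SE 0.0739), but the adjusted p was 0.518. Cpox, an enzyme of haem synthesis next to Cldnd1, was at 36.2 to 40.6 CPM in WT and 32.3 to 37.5 CPM in Polq+/- (log2 fold change -0.16, adjusted p = 0.0797). Cep97 shares stretches of at least 100 bases at 95% identity or more with transcripts of 30 other genes, and Cpox with those of 82. Ccdc80, a secreted matrix protein 7.998 Mb above Polq, was at 4.97 to 6.74 and 6.37 to 11 CPM (0.48, adjusted p = 0.0978). BC016579, 8.531 Mb above Polq, was at 0.187 to 0.473 CPM in WT and 0.264 to 0.89 CPM in Polq+/- (1.01, adjusted p = 0.173).

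Along chromosome 16 the low p-values were unevenly spread. The 8 called genes span 21.8 Mb from Fbxo40 to Cldnd1. Of 529 genes tested on the chromosome, 8 were called (1.51%) and 51 had an unadjusted p under 0.05 (9.64%). Of 17587 genes on other chromosomes, 0 were called by edgeR and 790 had an unadjusted p under 0.05 (4.49%). DESeq2 called 12 genes in the same comparison, 11 of them on chromosome 16, the other being Gm7887, and limma voom called 7, all on chromosome 16. More than 10 Mb above Polq, 25 of 164 genes had an unadjusted p under 0.05 (15.2%) and 7 were called. More than 10 Mb below Polq, 5 of 227 did (2.2%) and 0 were called. Within 10 Mb of Polq on either side, 21 of 138 did (15.2%) and 1 was called, Fbxo40. The stretch between the first and last called gene was marked out by the calls themselves, and 31 of its 96 tested genes had an unadjusted p under 0.05 (32.3%). Groups of 8 against 8 libraries failed to overlap for 7 genes, 0.0386% of those tested, all on chromosome 16: Polq, Cep97 and 5 of the called genes.

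**Figure D2:**
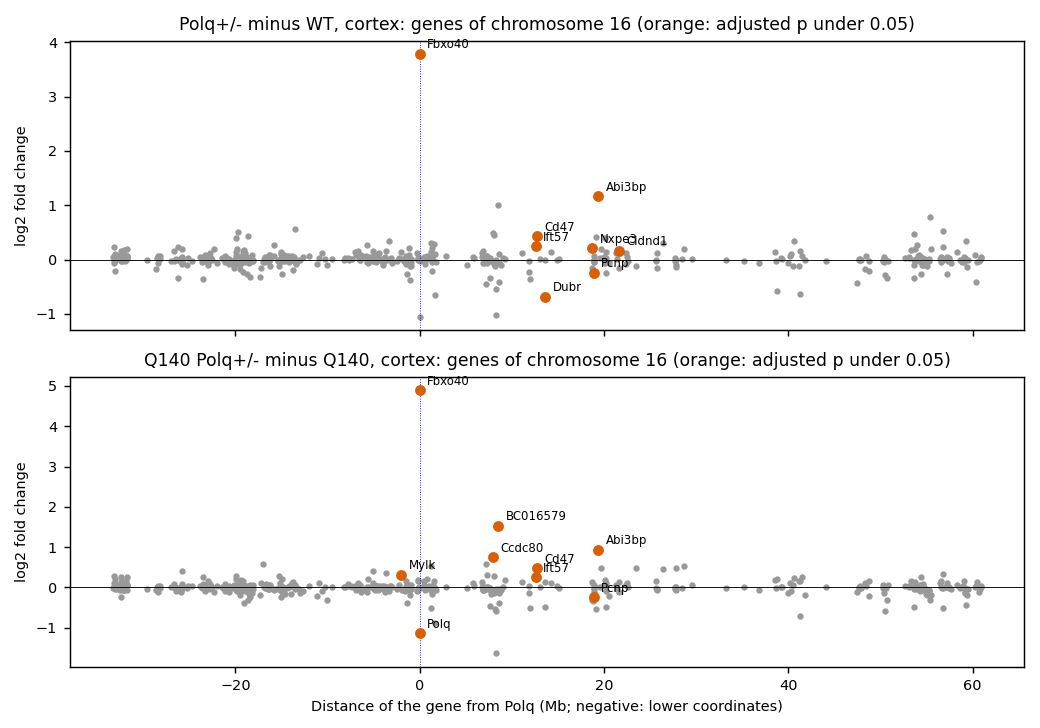
Log2 fold change of the 529 tested genes of chromosome 16 against their distance from Polq in Mb (dotted line at Polq), for Polq+/- minus WT (top) and Q140 Polq+/- minus Q140 (bottom). Orange genes had an adjusted p under 0.05; in the top panel they lie from Fbxo40, next to Polq, to Cldnd1 at 21.63 Mb.

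The Polq+/- mice did not change these genes by equal amounts. For each called gene the library farthest from WT was female 2 (6 of 8 genes) or male 3 (2 of 8). The 6 include Pcnp, for which both libraries were tied at 57.4 CPM. Female 2 had 220 CPM of Cd47, 52.2 CPM of Ift57, 38.7 CPM of Nxpe3 and 26.5 CPM of Abi3bp, the highest of its group in each. Male 3 had 218 CPM of Cd47, and both had 57.4 CPM of Pcnp, while the other 6 mice had 60.9 to 67.0 CPM. Next to Polq these mice differed from one another: female 2 had the group's highest Polq, 1.38 CPM, and 5.03 CPM of Fbxo40, while male 3 had its lowest Polq, 0.602 CPM, and its highest Fbxo40, 8.92 CPM. Without female 2 and male 3 together, 5 genes were called, namely Abi3bp, Cd47, Fbxo40, Ift57 and Pcnp. Dubr, Nxpe3 and Cldnd1 were then not called (adjusted p = 0.309, 0.333 and 0.532, edgeR), with log2 fold changes of -0.54, 0.17 and 0.13 beside -0.68, 0.21 and 0.16 with all libraries. These 2 libraries were singled out after their values had been seen.

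**Figure D3:**
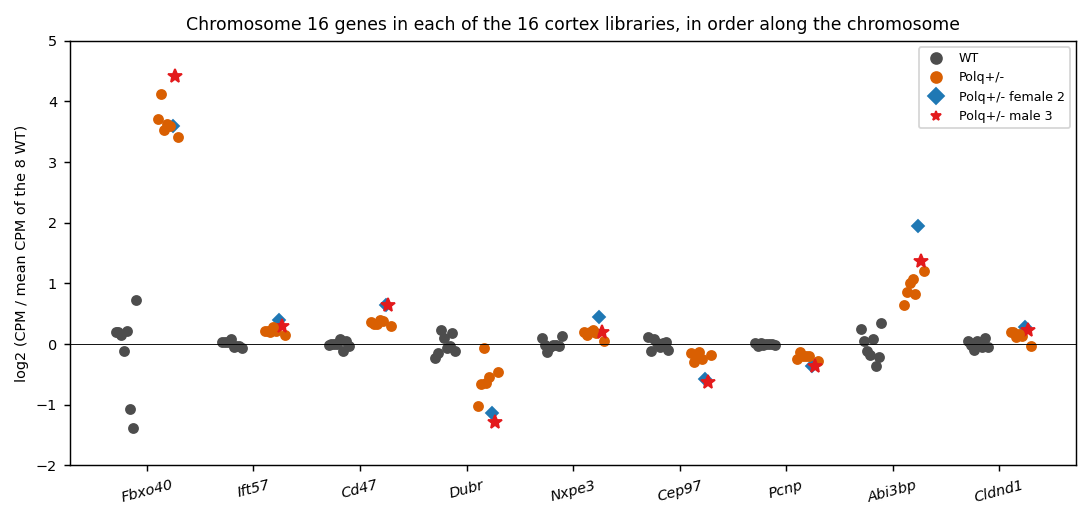
Log2 ratio of each library's CPM to the mean CPM of the 8 WT libraries, for the 8 called genes and Cep97 in order along chromosome 16 (grey WT, orange Polq+/-, with female 2 as a blue diamond and male 3 as a red star). Female 2 or male 3 was the Polq+/- library farthest from WT for each of the 8 called genes.

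Outside chromosome 16 the smallest p-values belonged to genes that did not pass the adjustment. Smo, the transducer of Hedgehog signals, was at 8.07 to 10.5 CPM in WT and 9.90 to 11.6 CPM in Polq+/- (log2 fold change 0.25, adjusted p = 0.469, edgeR). Smo was called in 1 of 32 alternatives, the edgeR fit with the plate column of the well address as a factor (adjusted p = 0.0384). Wasf2, an actin regulator, was at 20.2 to 23.2 and 22.9 to 24.9 CPM (0.16, adjusted p = 0.469). Lhfp was at 25.8 to 29.8 and 21.3 to 28.0 CPM (-0.16, adjusted p = 0.602), En2, a homeobox factor, at 0.363 to 1.11 and 0.235 to 0.516 CPM (-0.72, adjusted p = 0.518), and Gm9903 at 0.0591 to 0.302 and 0.148 to 0.637 CPM (1.07, adjusted p = 0.469). In the Q140 carriers the log2 fold changes of these 5 genes lay between -0.08 for Smo and 0.39 for Gm9903, none called. Htt was at 225 to 242 CPM in WT and 223 to 250 CPM in Polq+/- (log2 fold change 0.02, 95% interval -0.05 to 0.09).

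The 16 cortex libraries of mice with the Q140 knock-in give the same contrast with no library in common. Both contrasts came from the same fit of all 32 cortex libraries and share its estimate of spread, so they are not fully independent. In the Q140 carriers 10 genes were called (0.0552%) for Q140 Polq+/- minus Q140: Fbxo40, Cd47, Ift57, Ccdc80, Pcnp, BC016579, Gm7887, Mylk, Polq and Abi3bp. Of these 10, 5 are among the 8 above, 62.5% of those 8 and 50% of the 10, and all 8 kept their direction. Fbxo40 was at 0.171 to 0.335 CPM in Q140 and 4.75 to 11.8 CPM in Q140 Polq+/- (log2 fold change 4.89). The log2 fold change was 0.48 for Cd47, 0.26 for Ift57, -0.24 for Pcnp and 0.94 for Abi3bp. For the genes not called there it was -0.49 for Dubr, 0.14 for Nxpe3 and 0.14 for Cldnd1. The difference between both contrasts was tested as an interaction, and edgeR called 0 genes (863 at an unadjusted p under 0.05), as did DESeq2 and limma voom. Without the 4 mice of very low Polq, 6 genes were called in the Q140 carriers. Of the 5 shared genes Abi3bp was then not called (log2 fold change 0.75, adjusted p = 0.717), which leaves 4.

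The striatum of the same 16 mice had 9 genes called (0.0493%), all on chromosome 16: Fbxo40, Mylk, Cd47, Ccdc80, Tmem45a2, Pcnp, Cep97, Dubr and Sema5b. Since both tissues come from the same animals, these values are not independent of the cortex. Fbxo40 rose there by 4.17, Cd47 by 0.39, and Pcnp fell by 0.20 on the log2 scale. Ift57 had a striatal log2 fold change of 0.03 and was not called.

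The difference between the tissues was itself tested, in 1 edgeR fit of both tissues that took each mouse as a block. Of 19091 genes tested, 3 were called, all on chromosome 16. An unadjusted p under 0.05 was reached by 978 genes, where 955 would be expected if none differed. Mylk, the kinase of myosin light chains, has its end at -2.009 Mb from the start of Polq. Its exons share 548 bases with the antisense gene E130310I04Rik and 224 bases with the antisense gene Gm21691. In cortex Mylk was at 13.5 to 17.2 CPM in WT and 14.6 to 19.1 CPM in Polq+/- (log2 fold change 0.14, not called). In striatum it was at 7.23 to 8.81 CPM in WT and 14.5 to 24.8 CPM in Polq+/- (1.11, called), and the difference cortex minus striatum was -0.97 (adjusted p = 3.90e-08, edgeR). Dubr fell in cortex and rose in striatum by 0.27, from 15.5 to 21.3 CPM in WT to 19.6 to 22.4 CPM in Polq+/-, a difference of -0.96 (adjusted p = 9.09e-04). Abi3bp rose in cortex, while in striatum it was at 26.4 to 49.0 CPM in WT and 16.7 to 29.5 CPM in Polq+/- (log2 fold change -0.47, not called), a difference of 1.62 (adjusted p = 0.004). In females and males the cortical log2 fold change was 3.41 and 4.15 for Fbxo40 and 0.45 and 0.41 for Cd47, and 0 genes were called for the difference between the sexes by edgeR or limma voom (1467 at an unadjusted p under 0.05, 906 expected).

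**Figure D4:**
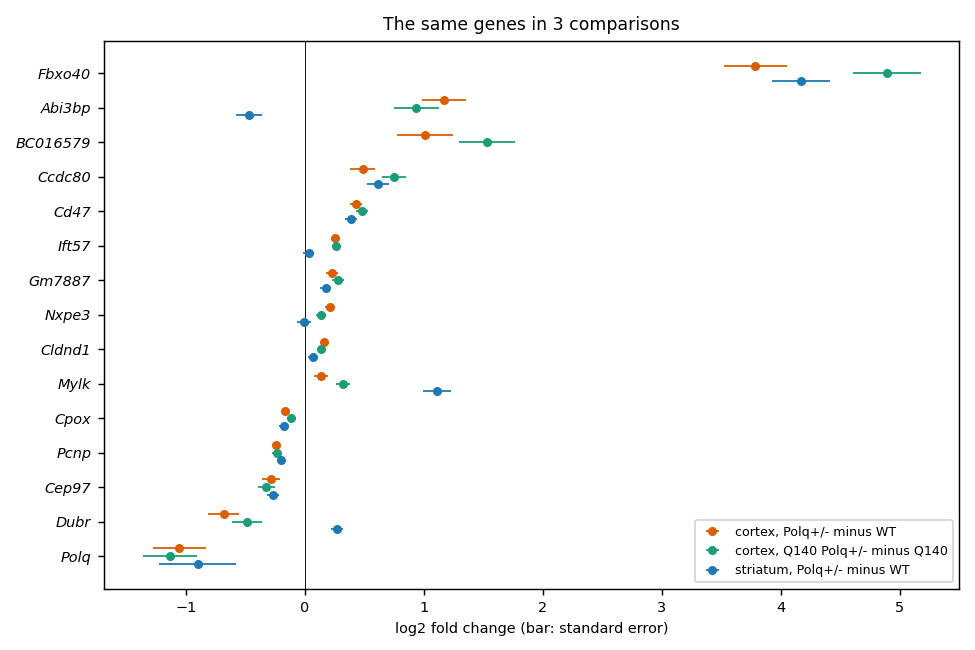
Log2 fold change with its standard error for 15 genes in cortex without Q140 (orange), in cortex with Q140 (green) and in striatum without Q140 (blue, with no point for BC016579, which was not tested there). Fbxo40 was the highest in each, at 3.79, 4.89 and 4.17, and Abi3bp, Dubr and Mylk differed between the tissues.

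The response of DNA repair genes was examined with lists of known members. Of 15 genes of theta-mediated end joining, 0 were called, and the median log2 fold change was 0.000105 beside 0.000349 over all genes tested. With 0.0442% of all genes called, a count of 0 in lists of this size does not set them apart. Apart from Polq, its members with the smallest p were Nbn, which senses broken ends (18.3 CPM in WT, 19.4 CPM in Polq+/-), and Rpa1, which coats single strands (43.7 and 45.1 CPM). Lig3 and Parp1, named for their known part in the pathway, were at 34.3 and 34.2 CPM and at 83.7 and 85.3 CPM. Classical end joining had 0 of 12 called with a median of 0.0134, homologous recombination 0 of 18 with -0.0406, damage signalling 0 of 18 with -0.000389, and mismatch repair and repeat instability 0 of 18 with 0.0171. Msh3, named for its role as the mismatch sensor tied to CAG tract growth, was at 19.0 ± 0.91 CPM in WT and 19.5 ± 1.28 CPM in Polq+/- (SD, n = 8 each). Of 20 p53 targets 0 were called (median 0.0154), and Cdkn1a, named as the best known of them, was at 21.5 ± 5.06 and 20.2 ± 2.64 CPM. Among 15 Fanconi anaemia genes the largest values were -0.51 for Ube2t, the conjugating enzyme (1.20 and 0.836 CPM), and 0.65 for Fanci (0.28 and 0.45 CPM), neither called (adjusted p = 0.809 and 0.999, edgeR).

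The 32 lists together held 415 tested genes, of which 0 were called by edgeR and 30 had an unadjusted p under 0.05 (7.23% beside 4.64% of all genes). DESeq2, which called Polq, found 1. Markers of upper layer excitatory neurons had a median log2 fold change of 0.00223 (6 of 11 above 0), those of deep layer neurons -0.0244, of pan excitatory neurons -0.0177 and of interneurons -0.00746. Astrocyte markers had a median of 0.0409 with 13 of 15 above 0, and 5 of the 15 had an unadjusted p under 0.05 (Gfap, Gja1, Slc1a2, Slc4a4 and Aqp4), beside 4.64% of all genes. Gfap, the filament protein of astrocytes, was at 59.1 ± 6.72 CPM in WT and 70.6 ± 9.66 CPM in Polq+/- (0.26, adjusted p = 0.999). Markers of mature oligodendrocytes (0.0579), precursors (0.0776), microglia (0.00738), endothelium (0.0603) and mural cells (0.083) also had medians under 0.1, and 0 of them were called. In bulk tissue fewer cells of a type and less RNA per cell cannot be told apart.

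The meningeal and fibroblast markers are given because Abi3bp and Ccdc80 encode matrix proteins. All 10 had a fitted value above 0, with a median log2 fold change of 0.265, but 0 were called and 3 of the 10 had an unadjusted p under 0.05 (Slc22a6, Igf2 and Aldh1a2), beside 4.64% of all genes. Their summed level was 59.8 to 122 CPM in WT and 79.9 to 119 CPM in Polq+/-, so the groups overlapped. With the mean of the list as a covariate, a fit added after the data were seen, 9 genes were called, the 8 and Polq. The log2 fold change was then 1.23 for Abi3bp and 0.46 for Cd47. Smo and Wasf2 each had an adjusted p of 0.992 in that fit (edgeR), beside 0.469 without the covariate. Markers of choroid plexus and ependyma had a median of 0.299 (6 of 7 above 0), with summed levels of 6.71 to 11 CPM in WT and 8.25 to 12.5 CPM in Polq+/-. Of these 7 genes 0 were called, and 3 had an unadjusted p under 0.05 (Kcnj13, Clic6 and Kl), beside 4.64% of all genes. Cerebellar granule cell markers had a median of 0.137 (9 of 9 above 0). Their summed level was 97.4 to 113 CPM in WT and 106 to 122 CPM in Polq+/-. Of these 9 genes 0 were called, and 1 had an unadjusted p under 0.05 (Zic2), beside 4.64% of all genes. Blood markers had a median of -0.114 (0 of 5 above 0), with 0 called. Beyond the fit with the meningeal covariate, the part of these tissues in the other results was not tested.

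Immediate early genes had a median of 0.039 and ran widely within both groups, with summed levels of 1120 to 3160 CPM in WT and 1640 to 2890 CPM in Polq+/-. The interferon list (-0.0083), heat shock (-0.0436), circadian clock (0.0764), cholesterol synthesis (0.0222) and mitochondrial respiratory chain (-0.0282) lists had 0 genes called.

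**Figure D5:**
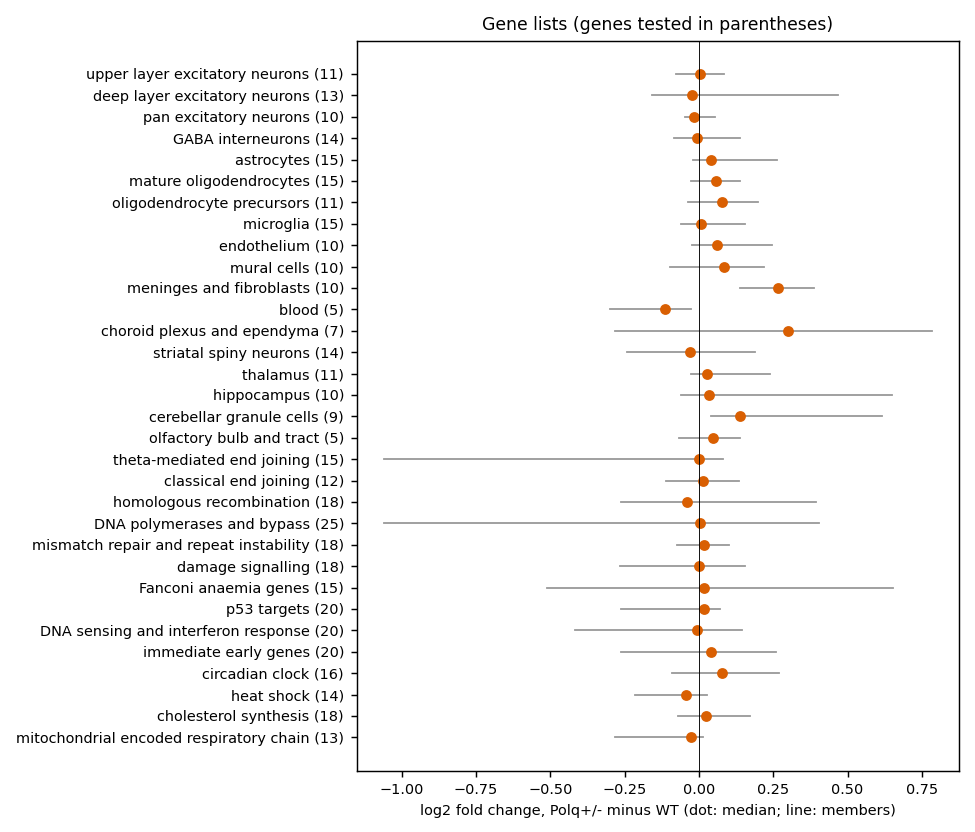
Median (dot) and range over members (line) of the log2 fold change Polq+/- minus WT in cortex for the 32 gene lists, with the number of tested genes in parentheses. The lowest members of theta-mediated end joining and of the DNA polymerases are both Polq at -1.06, and the meningeal list has a median of 0.265.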

How the data were processed

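The authors deposited a table of raw counts per gene and another of FPKM. Per the submitters' processing notes, STAR 2.7.5c, SAMtools 1.10 and HTSeq 0.12.3 were used with GRCm38 (mm10). Per the labels' protocols, RNA was extracted with a Qiagen RNeasy kit (the protocol names striatal tissue only) and libraries were made with an Illumina TruSeq stranded kit. Whether counting used strand, the sources used here do not say. The deposited FPKM values were used for levels per length and for 2 alternatives. Gene positions came from GENCODE vM21.

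The deposited counts entered edgeR 4.0.16 under R 4.3.3 (TMM, filterByExpr by genotype, robust quasi-likelihood fit, sex as a covariate, all 32 cortex libraries, contrast Polq+/- minus WT). The same fit gave the Q140 contrast and the interaction. The fit was checked on simulated data. Alternatives used DESeq2 1.42.0, limma 3.58.1 and sva 3.50.0. Depth was 31.6 to 38.7 M counts per library. Named genes were Polq, Htt, all called genes, the next by p up to 20, genes within 10 Mb of Polq called in either contrast, and up to 3 per list; others are marked as chosen by position, role or value. The result for 1 gene that this rule names is not reported here. The members and lists were chosen with earlier results of these data known. Replicate numbers did not pair the mice and were not used. Labels also give a well address and a mouse name, whose plate column and prefix hold both genotypes in part and entered alternatives.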

Additional observations from a re-analysis of the deposited data

Results flagged for a closer look

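Each group of 8 cortex libraries was examined for a value whose gap to its nearest neighbour is large beside the group's range, for the 22 named genes in both groups (44 groups). Chance flags about 1 in 20 groups, and 4 were found. Polq in Polq+/- male 3 was low at 0.602 CPM, with the next library at 1.20 CPM. Abi3bp in Polq+/- female 2 was high at 26.5 CPM, with the next at 17.6 CPM, and Nxpe3 in the same library was high at 38.7 CPM, with the next at 33.3 CPM. En2 in WT male 2 was high at 1.11 CPM, with the next at 0.68 CPM.

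A further 3 genes were noted because the Polq+/- effect differed between cortex and striatum by edgeR's test of the difference. The log2 difference cortex minus striatum was 1.62 for Abi3bp, -0.96 for Dubr and -0.97 for Mylk.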

How the results depend on the processing

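Fbxo40, Cd47, Ift57, Pcnp and Abi3bp were called under every alternative run, 32 for each gene and 33 for Pcnp. Dubr was called in 23 of 32, Nxpe3 in 17 and Cldnd1 in 11, and none of the 8 changed direction. The log2 fold change of Fbxo40 was 3.64 to 3.94 in the 30 alternatives on counts and down to 0.91 on log2(FPKM + 1), which understates low genes. Leaving out each library in turn gave 5 to 10 called genes, 4 to 7 higher and 1 to 3 lower, 5 to 9 of them on chromosome 16. The 5 came without Polq+/- female 1, female 2 or male 3, or without WT female 3 or male 4. Without Polq+/- female 2 and male 3 together 5 genes were called (4 higher, 1 lower, all 5 on chromosome 16). The lower genes numbered 4 in DESeq2, 1 with no low-count filter and 4 at an adjusted p under 0.1, where 12 genes passed in all. A fit of only the 16 libraries compared gave 7 calls, 6 of them on chromosome 16. They were 5 of the 8 (Abi3bp, Cd47, Fbxo40, Ift57 and Pcnp), Polq, and Fam180a, which is not on chromosome 16. Dubr, Nxpe3 and Cldnd1 were not called in that fit. Q140 carriers gave 6 calls without the 4 mice of very low Polq. Of the listed genes 1, Polq, was called by DESeq2, by limma on log2(FPKM + 1), in the 16 libraries alone, with the first surrogate variable, with the meningeal covariate, without those 4 mice and at an adjusted p under 0.1.

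The replicate numbers did not pair the mice (same-number correlations -0.0682 to 0.103, median 0.0375, and 3 of 8 mice correlated best with their own number). With the number as a replicate block, 8 genes were called (6 higher, 2 lower, all 8 on chromosome 16), 7 of them shared with the fit without it. Polq had 23 to 108 reads per library. With the plate column of the well address as a factor 10 genes were called (9 on chromosome 16, 7 of the 8 shared). The call off chromosome 16 was Smo. The prefix of the mouse name entered limma voom as a random block, and the same 8 genes were called (correlation within a prefix 0.198). Limma voom without the block called 7 of these 8, all but Cldnd1.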
